A study of Mus musculus with 8 samples.

Results

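The major urinary protein (Mup) region of mouse chromosome 4 was taken as the 5 kb positions of the deposited timing table from 59900000 to 62195000, in mm10 coordinates. These are 460 positions of the 31301 in the table. The rule names place alone, not timing, but the region was chosen with earlier results of these data known. The scores come from Repli-seq, in which newly made DNA is labelled with the nucleotide analog BrdU, cells are sorted into early and late S phase, and the labelled DNA of each fraction is sequenced. Mouse embryonic stem cells were labelled for 2 h, and DNA of 40000 cells per fraction was used. The control group was the line JM8N4, an embryonic stem cell line of C57BL/6N origin, and the other group lacked a Klf4 enhancer, Klf4 being a pluripotency factor gene. Each group had 2 profiles, each made from 1 early and 1 late library, so 8 libraries gave 4 profiles. The labels give no clone, passage or coordinates of the deletion, and do not say whether the replicates were separate cultures, so the p-values measure only the spread between these profiles, which may be technical. The region begins 4.37 Mb above the end of Klf4 on the same chromosome. The table holds no expression values, so the labelled cell type was not checked against markers.

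Major urinary proteins are small lipocalins that bind volatile pheromones. They are made mainly in the liver under control of sex and growth hormones and are passed into the urine, and some are also made in glands of the head. In mouse they are encoded by a tandem array of closely related genes with pseudogenes between them. In most cells, gene-rich and active chromosome segments are copied early in S phase and segments rich in silent, tissue-specific genes are copied late.

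The array holds 22 Mup genes in the RefSeq annotation of GRCm38.p6, the assembly that mm10 names, between the start of Mup4 at 59956804 and the end of Mup21 at 62150841. A further 22 entries carry a Mup-ps name, of which 20 are listed as pseudogenes or noncoding and 2, Mup-ps12 and Mup-ps16, as protein-coding. Starts of neighbouring Mup genes lay a median of 79.8 kb apart, with a smallest step of 46.7 kb and a largest of 407 kb, from Mup22 to Mup13. The largest step holds the longest stretch of the region without any annotated gene, 322 kb from the end of Gm21286, a long noncoding RNA gene, at 60840702 to the start of Mup-ps9 at 61163063. Snx30, which encodes a sorting nexin, and Slc46a2, a solute carrier gene, lie at the lower-coordinate edge of the region. Zfp37, a zinc finger gene, lies at the upper edge. Inip and Slc31a2 are the nearest protein-coding genes outside it.

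The genes of the array were compared by their RefSeq promoter sequence. RefSeq promoter entries were found for 14 of the 22 Mup genes, 13 on the minus strand and 1, Mup6, on the plus strand. The genes without an entry were Mup8, Mup1, Mup12, Mup22, Mup13, Mup16, Mup5 and Mup20. All 14 windows of 250 bases before the promoter entry's start aligned over a stretch of 113 bases of Mup11. In Mup14 and Mup15 this stretch overlaps the end of the annotated gene interval, and in the other 12 it lies outside it. The stretch is shown for the 2 lowest-coordinate genes, for Mup7 at the lower timing border, for Mup11 and Mup17 inside the late domain, and for the 2 highest-coordinate genes, in GRCm38.p6 coordinates and 5′ to 3′ on the gene's strand. Capitals mark bases that differ from the aligned base of Mup11, and bases absent from a copy are not shown.
Mup4 (chr4:59960770-59960881, minus strand): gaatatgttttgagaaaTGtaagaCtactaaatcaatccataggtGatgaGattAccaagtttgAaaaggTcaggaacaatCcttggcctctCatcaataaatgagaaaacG
Mup6 (chr4:60003269-60003380, plus strand): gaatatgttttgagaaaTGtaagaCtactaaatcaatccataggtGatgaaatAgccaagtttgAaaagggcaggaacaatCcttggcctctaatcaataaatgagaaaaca
Mup7 (chr4:60070476-60070588, minus strand): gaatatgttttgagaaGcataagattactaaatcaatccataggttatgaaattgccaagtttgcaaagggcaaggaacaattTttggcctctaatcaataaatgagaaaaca
Mup11 (chr4:60662502-60662614, minus strand): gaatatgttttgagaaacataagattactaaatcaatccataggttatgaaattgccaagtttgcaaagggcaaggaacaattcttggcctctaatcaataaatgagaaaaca
Mup17 (chr4:61595962-61596074, minus strand): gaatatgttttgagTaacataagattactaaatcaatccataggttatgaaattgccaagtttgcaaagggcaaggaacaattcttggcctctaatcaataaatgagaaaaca
Mup3 (chr4:62087399-62087510, minus strand): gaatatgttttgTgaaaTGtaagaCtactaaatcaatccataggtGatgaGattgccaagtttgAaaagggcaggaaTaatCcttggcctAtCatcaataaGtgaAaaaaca
Mup21 (chr4:62150917-62151028, minus strand): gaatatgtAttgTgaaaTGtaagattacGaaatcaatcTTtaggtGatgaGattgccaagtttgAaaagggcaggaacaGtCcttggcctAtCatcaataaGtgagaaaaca

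Mup2, Mup9 and Mup18 had no substitution against Mup11 in this stretch, and 10 of the 14 genes, Mup11 among them, had 0 to 2. The other 4 were those at the ends of the array, with 7 in Mup6, 11 in Mup4, 13 in Mup3 and 15 in Mup21, and each of these 4 also lacked 1 base. In control cells the 10 similar genes had mean scores from -2.88 to -0.06, and the 4 divergent ones from 0.0005 to 2.06. At 0 this split is narrow. Divergent Mup3 scored -0.16 and 0.16 in control 1 and 2, and similar Mup7 scored -0.10 and -0.01. In deletion cells Mup7 averaged 0.02, so the split at 0 does not hold there. Both properties follow place in the array, the 14 genes are neighbours that share smoothed scores, and the split into 10 and 4 was made after the values were seen, so this is a description. The 250-base windows were also aligned in pairs, with identity counted over aligned bases only, gaps and unaligned ends left out. By this count the 36 pairs among the 9 genes that were late in every profile had a median identity of 96.05%. These pairs aligned over 196 to 247 bases. Their longest exactly shared run had a median of 110 bases and reached 225 bases, between Mup15 and Mup19. The 45 pairs of such a gene with one of the other 5 had a median identity of 90.8% and a median longest run of 26 bases. They aligned over 113 to 239 bases. Mup7, 1 of these 5, was 96.5% to 98.6% identical to the 9 late genes. The 10 pairs among the 5 had a median identity of 88.05% and a median longest run of 27.5 bases. The sources used here do not give the read length or the treatment of reads that fit several copies, and the part of these shared runs in the scores was not tested.

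**Figure D1:**
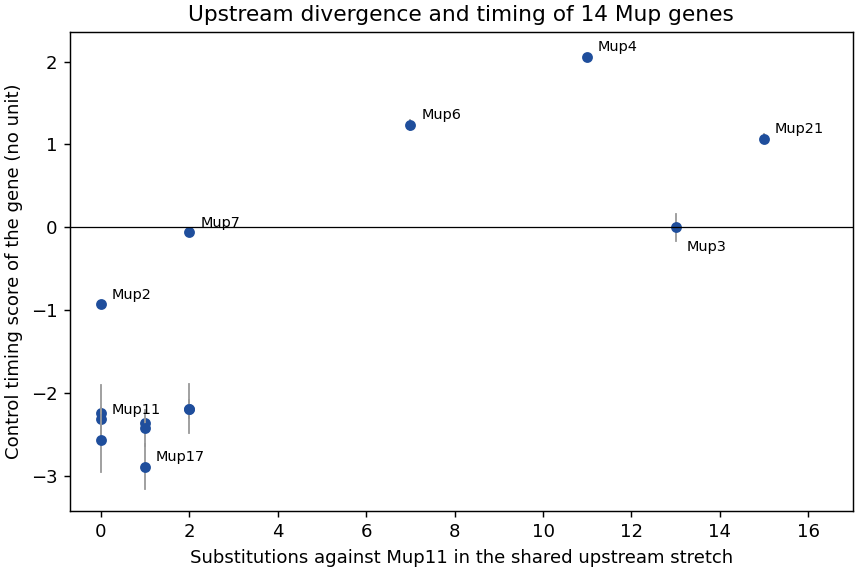
Control timing score of the gene (vertical axis, no unit, mean of 2 profiles, bars from the lower to the higher profile) against substitutions relative to Mup11 in the shared upstream stretch, for 14 Mup genes. By control mean the 4 genes with 7 to 15 substitutions, Mup6, Mup4, Mup3 and Mup21, lie at or above 0, and the 10 with 0 to 2 lie below it. The bar of Mup3, from -0.16 to 0.16, crosses 0 and overlaps that of Mup7, from -0.10 to -0.01.

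No position of the region lacked a score in any of the 4 profiles. Across the chromosome the control profiles lacked 639 positions, all in a run up to 3045000 and a run from 156360000, and the deletion profiles lacked 3 more in 1 inner run outside the region. The scores change little from position to position, and the number of reads behind each is unknown. How positions with few or no mappable reads were treated is not stated, so some scores may be filled from their neighbours. Assembly gaps and mappability were not examined here. Over the chromosome the 4 profiles had the same interquartile range of 4.60 and medians between -0.79 and -0.21. Higher scores were read as earlier replication, since control scores above 0 held 15.1 protein-coding genes per Mb and those below 0 held 2.95.

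The region was an early-late-early valley in every profile. Scores changed sign only at its 2 borders. Positions below 0 made up 88.3% of the region in control 1, 87.0% in control 2, 87.8% in deletion 1 and 84.3% in deletion 2. Over the chromosome the shares were 55.8%, 53.1%, 55.6% and 52.2% in the same order. The 11 positions below Mup4 averaged 2.36 ± 0.13 in control and 2.59 ± 0.36 in deletion cells. The 9 positions above Mup21 averaged 1.54 ± 0.10 and 1.67 ± 0.17. The 440 positions that overlap the Mup array averaged -1.87 ± 0.37 and -1.66 ± 0.33 (SD, n = 2 each for all of these). The flanking genes were early in every profile. Snx30 scored 2.43, 2.91, 2.59 and 3.23 in control 1, control 2, deletion 1 and deletion 2, and Zfp37 scored 1.77, 1.95, 1.84 and 2.16.

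**Figure D2:**
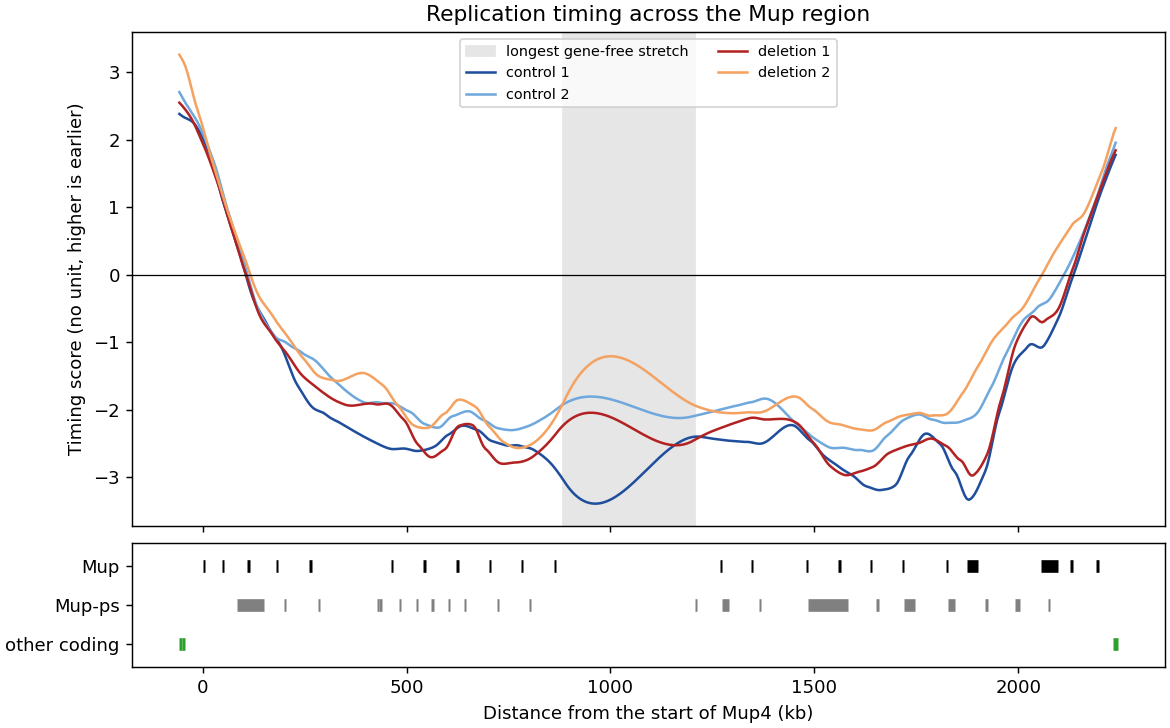
Timing scores without unit (vertical axis, earlier is up) of the 4 profiles against distance from the start of Mup4 in kb, with Mup genes, Mup-ps entries and other protein-coding genes below. All profiles fall below 0 between 106.0 and 117.2 kb and rise above 0 again near the other end of the array, and grey marks the 322 kb without an annotated gene, where the profiles spread most.

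Among late domains of the chromosome the Mup domain was near the middle in length and among the densest in genes. The control mean lay below 0 without a break for 2020 kb, rank 12 of the 28 such domains of at least 500 kb, whose median length was 1405 kb. Its median score of -2.28 ranked 10 from the latest, and its lowest score of -2.89 ranked 17. With 10.4 protein-coding genes per Mb, all of them Mup or Mup-ps genes, it ranked 2 of 28, where the median domain held 3.275 per Mb. The median gap between the highest and lowest profile was 0.65 in it and 0.92 in the median domain, rank 26 of 28 from the widest. These ranks describe the domains and carry no test.

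The lower border, where the score crosses 0, lay inside the array at nearly the same place in all profiles. It was at 60062755 in control 1, 60067031 in control 2, 60063505 in deletion 1 and 60074018 in deletion 2. The 4 crossings spanned 11.3 kb, and all lie inside the pseudogene Mup-ps1. That of control 2 falls inside Mup7, at 60066469 to 60070475, those of control 1 and deletion 1 below it and that of deletion 2 above it. The deletion mean differed from control by 3.87 kb, with control and deletion profiles overlapping (exact permutation test, two-sided, p = 0.667, with 0.333 as the smallest p this design allows). The sign of that difference turned with the level taken as the border, and with deletion replicate 2 left out, when it was -1.39 kb. Midway between the flank's highest and the array's median score of each profile, the crossings lay further apart. They ran from 60030742 in deletion 2 to 60064799 in control 1. The fall from a score of 1 to -1 took 131.6 and 144.0 kb in control 1 and 2, against 128.5 and 159.8 kb in deletion 1 and 2.

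At a score of 0 the upper border varied more. It was at 62091866 in control 1, 62068504 in control 2, 62084656 in deletion 1 and 62014575 in deletion 2, a span of 77.3 kb. That of deletion 2 falls inside Mup20, that of control 2 between Mup20 and Mup3, that of deletion 1 inside Mup3 and that of control 1 inside Gm12909, a long noncoding RNA gene. Mup20 encodes darcin, a male pheromone of mouse urine. The deletion mean differed by -30.6 kb, with -7.21 kb for the profiles numbered 1 and -53.9 kb for those numbered 2, and the genotypes overlapped (exact two-sided permutation p = 0.667). Without deletion replicate 2 the difference was 4.47 kb, though that comparison mixes genotype with number and the profiles numbered 1 gave -7.21 kb. With the border at each profile's own median the difference was -52.7 kb. There the genotypes did not overlap (exact two-sided permutation p = 0.333, the smallest possible). At a midway height the difference was -17.6 kb, and the genotypes overlapped. The upper crossings at that height ran from 62030851 in deletion 2 to 62074377 in deletion 1. The rise from -1 to 1 took 121.3 and 199.8 kb in control 1 and 2, against 188.9 and 235.0 kb in deletion 1 and 2. The late domain between the borders measured 2029.1 and 2001.5 kb in control 1 and 2, against 2021.2 and 1940.6 kb in deletion 1 and 2, a difference of means of -34.4 kb (exact two-sided permutation p = 0.667).

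Mup genes were early, intermediate or late by their place. Of the 22, 3 had scores above 0 in every profile, 16 below 0 in every profile and 3 had both signs. The early genes were the 2 at the lower end and the last at the upper end. Mup4 scored 2.02 and 2.09 in control 1 and 2, against 1.94 and 2.18 in deletion 1 and 2, and Mup6 scored 1.18, 1.30, 1.20 and 1.25 in the same order. Mup21 scored 1.02, 1.12, 1.11 and 1.32. The genotypes overlapped in all 3. Over the 15 positions from Mup6 to Mup7 the highest and lowest profile lay 0.09 to 0.23 apart.

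The genes at the borders took both signs. Mup7 scored -0.10 and -0.01 in control 1 and 2, against -0.07 and 0.12 in deletion 1 and 2. For Mup3 the control scores were -0.16 and 0.16 and the deletion scores -0.04 and 0.69. For Mup20 they were -0.93 and -0.36 against -0.64 and 0.17. In each of these 3 genes deletion 2 was the highest profile, and deletion 1 lay between the control profiles.

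The 16 late genes lay between Mup2 and Mup5. Mup2, closest to the lower border, scored -0.93, -0.92, -0.95 and -0.67 in control 1, control 2, deletion 1 and deletion 2, and Mup8 scored -1.90, -1.22, -1.58 and -1.34. From Mup9 to Mup5 the control means lay between -2.88 and -2.19. Mup1 scored -2.60, -2.20, -2.60 and -2.27. The lowest control mean was that of Mup17, with -3.15 and -2.61 in control 1 and 2, against -2.87 and -2.31 in deletion 1 and 2. Mup5, the last late gene, had the widest spread, -3.28 and -2.11 in the control profiles and -2.94 and -1.52 in the deletion profiles. Of the 13 steps between neighbours from Mup9 to Mup5, the control means differed by more than the larger of the 2 control SDs in 1, from Mup15 to Mup16. Every step outside that stretch exceeded it, 9 of 21 steps in all. That SD holds the shift of whole profiles against each other, which drops out when both genes are read in the same profile. Read so, 15 of the 21 steps had one sign in all 4 profiles, among them 7 of the 13 from Mup9 to Mup5. From Mup1 to Mup10 the score rose by 0.31, 0.12, 0.31 and 0.40 in control 1, control 2, deletion 1 and deletion 2. From Mup10 to Mup11 it fell by 0.14, 0.11, 0.33 and 0.36 in the same order. The other 6 of these 13 steps had both signs.

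**Figure D3:**
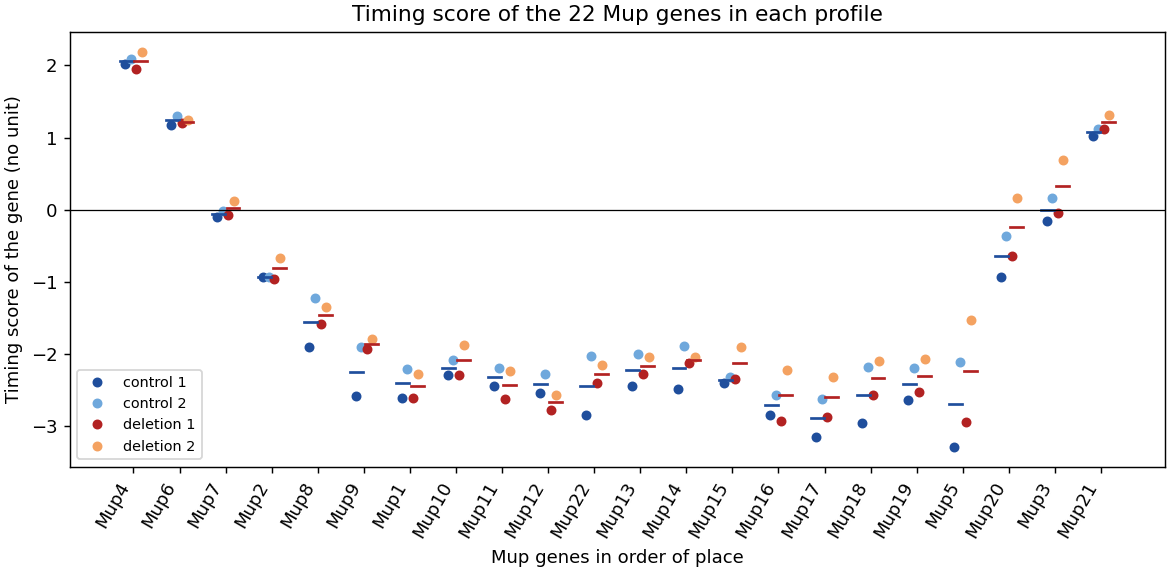
Timing score (vertical axis, no unit) of the 22 Mup genes in order of place, with a point per profile and short bars for the mean of the 2 control and of the 2 deletion profiles. Scores fall from 2.06 in Mup4 to -2.24 in Mup9 in control cells and rise again from Mup5 to 1.07 in Mup21, and the genotypes overlap in 21 of the 22 genes.

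Genotype made no called difference at any Mup gene. By limma, 0 of the 27 protein-coding genes that overlap the region passed the test (lowest adjusted p = 0.999), with 0 at an unadjusted p under 0.05. Over the chromosome 0 of 1301 genes passed, 0.0%, and 1.31% had an unadjusted p under 0.05. The deletion mean was higher in 18 of the 22 Mup genes and lower in 4, with a median difference of 0.12, while the median over all 1301 genes was 0.14. Differences ran from -0.26 in Mup12 to 0.46 in Mup5. Both deletion profiles lay below both controls in 1 gene, Mup12, at -2.54 and -2.28 in the control and -2.77 and -2.56 in the deletion profiles, and above them in none of the 22. Over all genes of the chromosome these shares were 6.53% and 15.1%. A p that misses the threshold does not show that the genotypes are alike.

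Over the whole region the score averaged -1.95 and -1.45 in control 1 and 2, against -1.72 and -1.25 in deletion 1 and 2. The deletion mean was higher by 0.21 (SE 0.34), or 0.05 relative to the median difference of 0.16 over all positions, and the genotypes overlapped (exact two-sided permutation p = 0.667). For the profiles numbered 1 it was 0.23 and for those numbered 2 it was 0.19. It turned to -0.04 without control replicate 1 and to -0.02 without deletion replicate 2, and leaving out control replicate 2 or deletion replicate 1 raised it to 0.46 and 0.45. Over the Mup array alone it was 0.21 (SE 0.35) with the same p. Median centring of the profiles lowered the region's difference to 0.10 and quantile normalization to 0.08. By limma without the replicate number as a block, 0 of the 460 positions passed the test and 0 had an unadjusted p under 0.05. Over the chromosome's 30659 positions with a score in every profile the shares were 0.0% and 0.975%. A fit with that block called positions in the gene-free stretch and is given below. Both deletion profiles lay above both controls at 4 positions, 0.87% of the region, against 16.0% of the chromosome, and below them at 7, 1.52%, against 5.86%. The 4 run from 61410000 to 61425000, just below Mup15, and the 7 run from 60715000 to 60745000, over Mup12.

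The replicate number separated the profiles more than genotype did. Number 2 scored above number 1 in both genotypes at 452 of the 460 positions, 98.3%, against 69.8% of the chromosome. Over the region number 2 was higher by 0.50 in control and 0.47 in deletion cells, while the median over the chromosome was 0.33 and 0.45. Control 1 was the lowest profile at 75.0% of the region's positions and deletion 2 the highest at 75.0%, against 46.2% and 60.7% of the chromosome. The labels do not say whether the numbers stand for days, batches or cultures.

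The widest disagreement lay where no gene is annotated. At 60940000 the scores were -3.37 in control 1, -1.82 in control 2, -2.07 in deletion 1 and -1.22 in deletion 2. Control 1 dipped there while the other 3 profiles rose, and the gap of 2.15 between the highest and lowest profile was wider than at 99.61% of the chromosome's positions. Over the 63 positions of the gene-free stretch, control 1 and 2 averaged -3.01 and -1.95 and deletion 1 and 2 averaged -2.27 and -1.48. The difference was 0.60 (SE 0.66), 0.73 for the profiles numbered 1 and 0.47 for those numbered 2, and the genotypes overlapped, with deletion 1 below control 2 (exact two-sided permutation p = 0.667). The highest mean difference of the region, 0.95, lay in this stretch. Outside it the median gap between profiles was 0.55, below the chromosome median of 0.77, and in it 1.66.

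The profiles were also straighter there. The median change of slope between neighbouring steps was 0.00148 in control 1, 0.000733 in control 2, 0.00125 in deletion 1 and 0.00119 in deletion 2. Over the chromosome it was 0.00272, 0.00215, 0.00262 and 0.00273 in the same order. Of the 37 stretches of at least 300 kb without an annotated gene on the chromosome, this one ranked 1 from the smoothest and 2 from the widest gap between profiles, while it ranked 30 in length. The stretch was singled out by annotation after the profiles had been seen, and the part of smoothing or of the number of reads in its spread was not tested. A smaller peak of disagreement lay over Mup5 at 61850000, with -3.24 and -2.08 in control 1 and 2, against -2.95 and -1.44 in deletion 1 and 2, a gap of 1.81.

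**Figure D4:**
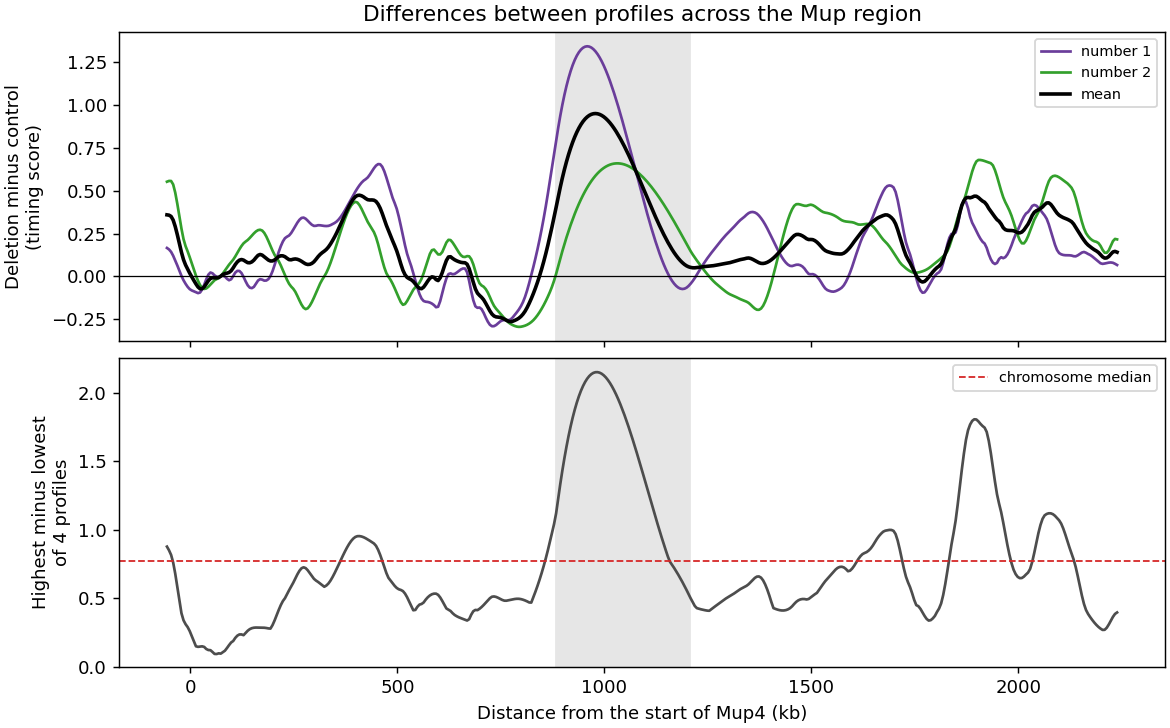
Deletion minus control score (upper panel, no unit) within number 1, within number 2 and on average, and highest minus lowest of the 4 profiles (lower panel, no unit), against distance from the start of Mup4 in kb. The average difference peaks at 0.95 and the gap at 2.15 inside the grey gene-free stretch, while between Mup6 and Mup7 the gap is 0.09 to 0.23, under the chromosome median of 0.77 drawn as a dashed line.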

How the data were processed

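The authors deposited a timing score per 5 kb position and profile. The file name marks the scores as scaled by interquartile range, and that range is the same in each column. The submitters' processing notes name Bowtie2, SAMtools, bedtools and mm10 without versions. For the log base and smoothing, nothing is stated in the sources used here. A position was taken as its bin's start, and scores of genes are means over overlapping bins. Genes came from a RefSeq table of GRCm38.p6.

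The genotypes were compared by limma 3.58.1 under R 4.3.3, with lmFit and eBayes, over all positions and all protein-coding genes, two-sided, with Benjamini-Hochberg adjustment at 0.05, and single values by exact permutation. limma was tested on simulated data with known shifts and independent noise at each position. The simulation had neither the smoothness of these profiles nor a shift between numbers. It therefore does not show how small a difference could be called here. Borders are interpolated crossings of 0 at the ends of the longest run below 0. Upstream windows were aligned with Biopython 1.88. All genes named Mup or Mup-ps in the region, its protein-coding genes and the nearest outside were to be named. The region and lists were chosen with earlier results of these data known. Alternatives were median centring, quantile normalization, the replicate block, other limma options, other border levels, bin ends, own measured positions, positions near missing runs and leaving out each profile.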

Additional observations from a re-analysis of the deposited data

How the results depend on the processing

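With the replicate number as a block, limma called 26 positions of the region, all higher in deletion cells and from 60880000 to 61005000 in the gene-free stretch, 5.65% of the region against 2.56% of the chromosome. Whether the numbers pair profiles is not stated. Deviations of profiles with the same number correlated at 0.64 over the chromosome and 0.51 over the region, and 2 numbers are too few to take that as pairing. With the block 0 genes of the region were called. The other limma settings that kept all 4 profiles called 0 positions and 0 genes of the region, and also 0 over the chromosome. The region's mean difference ranged from -0.0399, without control replicate 1, to 0.46 with each profile left out in turn, and that of the Mup array from -0.0462, again without control replicate 1, to 0.47. Without deletion replicate 2 they were -0.0242 and -0.0246. A fit without 1 profile mixes genotype with number. Median centring lowered both differences to 0.10, with both deletion profiles then above both controls (exact two-sided permutation p = 0.333, the smallest possible). Quantile normalization lowered them to 0.08 and 0.09, and bin ends left that of the array at 0.21. Own measured positions and the rule on missing runs, each where run, also gave 0.21. They could hardly change it, as no position of the region lacks a score. The lower border differed by -4.29 kb after median centring, by -4.29 kb with the border at each profile's median, and by -14.0 kb with the border midway between the flank's highest and the array's median score, and it ranged from -1.39 to 9.12 kb with profiles left out. The upper border difference ranged from -65.6 to 4.47 kb with profiles left out and was -17.6 kb at the midway height. After median centring, at each profile's median and after quantile normalization the genotypes did not overlap (exact two-sided permutation p = 0.333, the smallest possible). The differences there were -52.7, -52.7 and -25.3 kb in the same order. The cause of these changes was not tested. Read depth is unknown, and 2 profiles per genotype limit every comparison.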

Other observations

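Inside the late domain the profiles shared several local dips and rises of at least 0.2 in prominence. All 4 had a dip between 60485000 and 60530000, near Mup1, at -2.61 and -2.27 in the control profiles and at -2.70 and -2.27 in the deletion profiles. All 4 rose again between 60585000 and 60605000, next to Mup10. A dip between 61535000 and 61615000, past Mup16 and around Mup17, was also found in all 4. Past Mup14 each profile had a rise, but not at a common place. It peaked at 61400000 in control 1, 61335000 in control 2, 61305000 in deletion 1 and 61405000 in deletion 2. From 61335000 to 61400000 control 2 fell from -1.83 to -2.14 while deletion 2 climbed from -2.02 to -1.81. A dip between 60695000 and 60730000, between Mup11 and Mup12, was found in 3 profiles and not in control 1. A dip at 61835000 in control 1 and at 61845000 in deletion 1, over Mup5, had no counterpart of this size in either number 2 profile.

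The Mup-ps entries followed the genes beside them. Of the 20 listed as pseudogenes or noncoding, 18 scored below 0 in every profile and 2, Mup-ps1 and Mup-ps21 at the borders, had both signs. Their median score was -2.23 for control and -2.06 for deletion cells, and the genotypes overlapped in all 20. Neighbouring entries share positions and smoothed scores, so they are not separate evidence.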
